A study of Mus musculus with 35 samples.

Results

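RNA of mouse embryonic stem cells (ESCs) that lack DICER was set against RNA of wild type (WT) ESCs from the later days of a time course. The comparison held 7 of the 35 libraries of the series: the only *Dicer* KO library and 6 WT libraries, 2 each from days 11, 17 and 25. These 6 were chosen because the share of their reads that falls in gene exons is like that of the *Dicer* KO library. Replicate 3 of WT day 1 has a like share, 47.7%, and was left out of the comparison. It was added only as an alternative. The rest of the series is WT ESCs of earlier days and, over the same days, *Dnmt1* KO ESCs. DNMT1 maintains DNA methylation, and its gene was removed in those cells by induced Cre recombination. GEO's labels give all 7 libraries as total RNA of ESCs with the background strain E14 and the genotype Wildtype or Dicer KO, while the study's methods give C57BL/6 as the strain of the parent line. Per these methods, *Dicer* was deleted constitutively with CRISPR/Cas9 in ESCs that carry loxP-flanked, undeleted *Dnmt1* alleles. The cells were grown on feeder cells during targeting and picked as colonies of single cells, and how many such colonies the library holds is not stated. ESCs were otherwise kept in serum and LIF with or without feeders, and which cultures had feeders is not given per library. The *Dicer* KO library has no day in its label. Differences between WT and *Dicer* KO cells, between a clone and its parents, and between cultures cannot be told apart in these 7 libraries.

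DICER is the ribonuclease that cuts hairpin precursors into microRNAs (miRNAs), and longer double-stranded RNA into small interfering RNAs. A miRNA loaded into an Argonaute protein pairs through its seed, bases 2 to 8, with sites that lie mostly in 3′ UTRs, and lowers the stability and translation of those mRNAs. Mouse ESCs are known for 2 abundant groups of miRNAs with closely related seeds, the miR-290 and miR-302 clusters and the miR-17 group, which favour passage from G1 into S phase. The let-7 miRNAs, which build up as cells differentiate, are held back in ESCs by LIN28A. The sequences below are the mature miRNAs whose target sites were searched for in the 3′ UTRs, 1 or 2 for each seed that the results turn on, as RefSeq gives them (GRCm38.p6), 5′ to 3′, with the seed in capitals.
mmu-miR-294-3p: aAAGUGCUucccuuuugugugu
mmu-miR-302b-3p: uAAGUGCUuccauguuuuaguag
mmu-miR-17-5p: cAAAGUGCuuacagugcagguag
mmu-miR-92a-3p: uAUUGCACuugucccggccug
mmu-miR-130a-3p: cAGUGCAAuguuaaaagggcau
mmu-miR-19b-3p: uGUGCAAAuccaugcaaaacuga
mmu-let-7a-5p: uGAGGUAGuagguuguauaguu
The first and second share a seed across different loci. The miR-17 seed is that seed moved by 1 base, so that the sites of both groups overlap.

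The deposited values are RPKM, reads per kilobase of exon and per mega-read (1e6 reads) of the library. The *Dicer* KO library held 25.9 mega-reads, of which 46.3% fell in gene exons. The 6 WT libraries held between 27.3 and 38.7 mega-reads, with shares between 44.1% and 48.2%. Across the 12035 genes compared, Pearson's r on log2(RPKM + 0.1) lay between 0.989 and 0.992 for the 3 pairs of WT libraries of the same day, between 0.907 and 0.965 for the 12 pairs of WT libraries of different days, and between 0.790 and 0.814 for the *Dicer* KO library with each WT library. These coefficients run over genes, which are not independent replicates.

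The targeted gene did not set the *Dicer* KO library apart. *Dicer1* (chromosome 12, 105925952 to 105990162, minus strand, NCBIM37) stood at 4.01 RPKM with *Dicer* deleted, and the lowest, median and highest of the 6 WT libraries were 3.905, 5.98 and 8.57 RPKM. WT values below are given in that order. The table holds 1 value per gene over all of its exons, so that a loss of part of the exons, or of the protein alone, is not visible in it. *Dnmt1* had 34.8 RPKM against 14.1, 16.8 and 34.8 RPKM in WT. It was thus level with the highest WT library, which is of day 25.

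A gene was compared if its RPKM was above 1 in at least 1 of the 7 libraries, and was called if the *Dicer* KO value lay more than 1 unit of log2(RPKM + 0.1) above the highest or below the lowest WT value. Of 12035 such genes, 1211 lay above the WT range, which is 10.1% of those compared, and 437 lay below it, which is 3.63%. With each library centred on its median, which moves the median difference of all genes from 0.10 to -0.15, the counts were 925 above and 669 below. With 1 *Dicer* KO library there is no replicate check and no test, and these shares are the background against which each gene list is read. For scale, both libraries of WT day 25 lay more than 1 unit above the other 4 WT libraries in 4.16% of genes and below them in 1.25%, both of day 11 in 1.51% and 0.598%, and both of day 17 in 0.108% and 0.116%. These WT pairs are 2 libraries that must both pass, and the *Dicer* KO value is 1 library, so the shares are not like for like. A further 4680 genes fell inside the WT range. The median difference, *Dicer* KO minus the mean of the 6 WT libraries, was 0.10 over all genes compared. Of the 1211 genes above, 555 passed the 1 RPKM minimum through the *Dicer* KO library alone, so that the other 656 were also above 1 RPKM in a WT library. Against all 34 other libraries of the series, 801 of the 1211 and 104 of the 437 were still more than 1 unit outside. Most libraries of the earlier days among these have a lower exon share, which lowers every RPKM in them. A call above is thereby easier to keep than a call below, so that these counts are not like for like. At the threshold, *Lgals8* with 2.703 RPKM (highest WT 1.301) was just outside and *Sulf1* with 9.81 RPKM (highest WT 4.86) just inside. On the lower side *Esco2* with 7.27 RPKM (lowest WT 14.7) was just outside and *Banf1* with 19.3 RPKM (lowest WT 38.6) just inside.

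**Figure D1:**
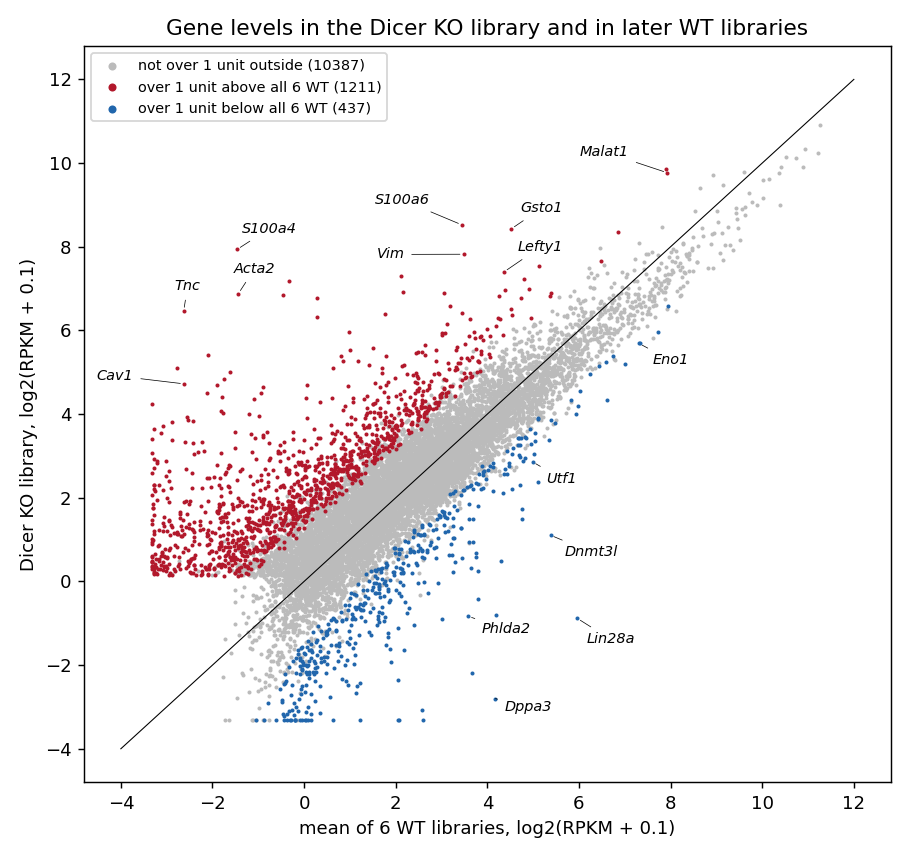
Level of each of the 12035 genes compared, log2(RPKM + 0.1), as the mean of the 6 WT libraries (x axis) and in the *Dicer* KO library (y axis), with the line of equal values. The 1211 genes over 1 unit above all WT libraries are red and the 437 below are blue; *Lin28a*, *Dppa3*, *Tnc* and *S100a4* stand furthest from the line.

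The 12 genes furthest below the WT range included *Lin28a* and *Dppa3*, which stood furthest of all. *Lin28a*, the RNA-binding protein that blocks let-7 maturation (chromosome 4, 133559245 to 133574756, minus strand), had 0.443 RPKM, made of 40 reads, against 48.2, 63.2 and 78.3 RPKM in WT. Its lowest WT value was 109 times the *Dicer* KO value, a difference of -6.84 on the log2 scale from the WT mean. *Dppa3*, a maternal factor that protects the methylation of the early embryo, had 1 read in the *Dicer* KO library (0.0435 RPKM) against 8.51, 23.3 and 27.9 RPKM in WT. The paralog *Lin28b* did not follow *Lin28a*, with 5.04 RPKM against 3.52, 5.79 and 7.08 RPKM. *Dnmt3l*, the cofactor of the de novo methyltransferases, had 2.05 RPKM against 34.3, 42.1 and 50.4 RPKM, and *Phlda2*, an imprinted gene that limits placental growth, had 0.461 RPKM against 9.44, 12.2 and 14.3 RPKM. In *Lin28a*, *Dppa3*, *Dnmt3l* and *Phlda2* the *Dicer* KO value was apart from all 6 WT values.

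*Kis2* lay 5.11 log2 units below the lowest WT library, with 1 read in the *Dicer* KO library and 3.98, 4.65 and 10.8 RPKM in WT. This transcript (chromosome X, 50095740 to 50098137, minus strand) ends at the first of 6 annotated miRNA genes on its own strand: *Mir106a*, *Mir18b*, *Mir20b*, *Mir19b-2*, *Mir92-2* and *Mir363*, the miR-17 related cluster of the X chromosome, all starting no more than 796 bases past its end. *Pdzd4* (0.469 RPKM against 14.9, 16.6 and 25.7) and *Gm14817* (0.121 against 9.99, 12.5 and 16.4) overlap on opposite strands of the X chromosome, as *Gm13061* (0 against 4.26, 5.93 and 8.72) overlaps the 5′ end of *Lin28a*. The study's methods give the libraries as stranded. No source used here states that the counting behind the deposited values used strand, so that the reads of each such pair cannot be told apart in them. The rest of the 12 furthest below were *Spink3*, a trypsin inhibitor (0 RPKM against 1.85, 5.51 and 6.72), *Car4*, a carbonic anhydrase (0 against 1.52, 2.04 and 3.64), *Glyatl3* (0 against 1.304, 6.03 and 9.09) and *Pla2g1b*, a secreted phospholipase (0.435 against 5.92, 8.27 and 10.2). Where the *Dicer* KO library held no read, the WT mean was at least 16.5-fold higher for *Spink3*, 39.9-fold for *Car4* and 38.4-fold for *Glyatl3*, with 3 reads per library as the floor. Floors and counts of reads here cover counting error only.

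*Tnc*, *S100a4* and *Mgp* stood furthest above the WT range. *Tnc* (tenascin C, an extracellular matrix glycoprotein) had 88.4 RPKM, 17208 reads, against 0.0223, 0.0540047 and 0.129 RPKM in WT, so that it stood 688 times above the highest WT library. *S100a4*, a calcium-binding protein of fibroblasts, had 245 RPKM against 0, 0.301 and 0.628 RPKM, and *Acta2* (smooth muscle actin) had 118 RPKM against 0.0729, 0.303 and 0.673 RPKM. All 3 were under 1 RPKM in every one of these WT libraries. *8030451A03Rik*, which overlaps *Tnc* on the other strand, had 4.38 RPKM against at most 0.0163 in WT. *Grem1*, a BMP antagonist, had 34.04 RPKM against 0, 0.0468 and 0.116, *Cav1*, the coat protein of caveolae, had 26.3 against 0.00896, 0.0501 and 0.145, and *Msln* (mesothelin) had 114 against 0.418, 0.588 and 1.03. *Mgp* (matrix Gla protein), *Ccl7* (a chemokine) and *Ppbp* (a platelet chemokine) had no read in any of the 6 WT libraries and 18.9, 10.5 and 8.296 RPKM in the *Dicer* KO library, at least 103-fold, 76.5-fold and 81.5-fold above the floor of 3 reads per library. *Lyz2*, the lysozyme of macrophages, had 12.4 RPKM and 1 read in 1 of the WT libraries. *Ccdc80*, a matrix protein, had 13.1 RPKM against 0, 0.0244 and 0.0439, and *1700019G06Rik*, which overlaps *Prss23* on the other strand, had 42.6 against 0, 0.198 and 0.399956.

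Several abundant genes were above the WT range as well. *S100a6* had 368 RPKM against 7.15, 11.4 and 15.8 RPKM in WT, and *Gsto1*, a glutathione transferase, had 345 against 21.2, 22.6 and 24.5. The 6 WT values of *Gsto1* spanned only from 21.2 to 24.5 RPKM. *Lefty1*, a secreted inhibitor of Nodal, had 169 RPKM against 16.1, 20.98 and 27.7, *Itgb1*, the shared chain of many integrins, 149 against 20.4, 23.4 and 42.98, and *Lgals1* (galectin 1) 186 against 24.7, 27.5 and 64.7. *Sfn* (14-3-3 sigma) had 128 RPKM against 19.6, 33.3 and 38.9, and *Tmsb4x*, an actin-binding peptide, 328 against 91.8, 110.3 and 153. *Malat1*, an abundant nuclear RNA, had 873 RPKM against 143, 262 and 331, with *Gm20417* inside it on the other strand. *Cd81*, *Capns1* and *Lamp1* were between 2.04 and 2.36 times above the highest WT library. With median-centred libraries the calls of *Tmsb4x*, *Cd81* and *Lamp1* were lost.

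The 12 most abundant genes below the range were called against these 6 WT libraries, and all 12 lost the call against all 17 WT libraries. Of the 17, 10 have an exon share between 20.2% and 21.5%, which lowers every RPKM in them. Losing a call below there is thus no check of that call. *Ldha* had 62.8 RPKM against 133, 189 and 347 and *Eno1* 51.4 against 124, 164 and 192. *Fth1* (ferritin heavy chain) had 36.8 RPKM against 97.7, 137 and 150.2, and *Gnl3* (nucleostemin) 38.1 against 85.6, 93.9 and 115. The lowest WT library stood between 2.06 and 3.16 times above the *Dicer* KO library in the 12 most abundant genes of this side, which also hold *Gm8730*, *Hist1h1e*, *Rpl10*, *H2afx*, *Mkrn1*, *Dctpp1*, *Tomm5* and *Nop10*. Genes of this kind (*Gm8730*, *Rpl10*, *Eno1*, *Ldha*) have near-identical copies in the genome, and how reads were shared among copies is uncertain.

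**Figure D2:**
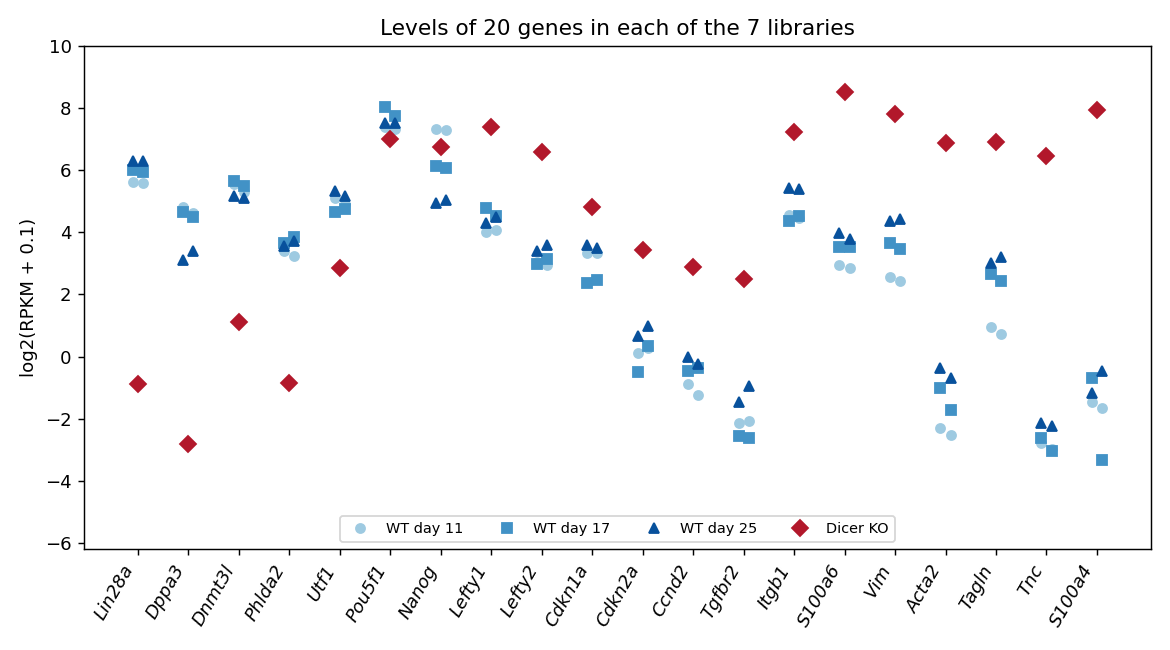
Level of 20 named genes, log2(RPKM + 0.1), in each of the 7 libraries; blue symbols are the WT libraries by day and red diamonds the *Dicer* KO library. *Lin28a* to *Utf1* lie below all WT symbols, *Pou5f1* and *Nanog* lie within 1 unit of them, and *Lefty1* to *S100a4* lie above them.

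Genes known as targets of the miR-290 and miR-302 miRNAs stood above the WT range as a group. Of the 22 genes of this list, 18 passed the 1 RPKM minimum (3 of them through the *Dicer* KO library alone). Of the 18, 12 were over 1 unit above the WT range and none below, against 10.1% and 3.63% of all genes, and the median difference was 1.71, against 0.10. Over the 15 that also passed in a WT library the median was 1.56. The list was written with earlier results of these data known, so that its count and median are descriptions and no independent support. Among inhibitors of the cell cycle, *Cdkn1a* (p21) had 27.9 RPKM against 5.06, 10.1 and 11.8 RPKM in WT, *Rbl2* (the pocket protein p130) 2.93 against 0.626, 0.9698 and 1.21, and *Lats2*, a kinase of the Hippo pathway, 7.77 against 1.39, 1.82 and 1.903. Each of these was above every WT library by over 1 unit, although *Rbl2* was not with a pseudocount of 1. The Nodal inhibitor *Lefty2* had 96.4 RPKM against 7.66, 8.54 and 11.9, and *Lefty1* is given above. *Tgfbr2*, a TGF-β receptor chain, had 5.53 RPKM against 0.0622, 0.132 and 0.415, *Rab11fip5*, of vesicle transport, 5.72 against 0.164, 0.541 and 0.705, and *Rhoc*, a small GTPase, 23.3 against 4.26, 5.997 and 7.903. The D cyclins *Ccnd1* (46.8 against 6.001, 17.8 and 22.2) and *Ccnd2* (7.21 against 0.324, 0.652 and 0.888), the kinase *Akt1* (15.8 against 5.41, 5.67 and 7.35) and the methyl-CpG protein *Mbd2* (8.42 against 2.06, 2.56 and 3.44) complete the 12. With median-centred libraries 3 of the 12, *Rbl2*, *Akt1* and *Ccnd1*, lost the call. *Ccnd1* also lost it with replicate 3 of WT day 1 added and against all 17 WT libraries. *Bmpr2*, *Fndc3a*, *Ei24*, *Casp2* and *Cdc42* were above all 6 WT libraries by less than 1 unit, and *Btg1* was within their range.

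The sites in these mRNAs show what the search matched. The 7-base site of the miR-290 and miR-302 seed, AGCACTT, was in the longest annotated 3′ UTR (GENCODE vM1) of 16 of the 18 genes, and a site of this seed or of the miR-17 seed, GCACTTT, in 17 of 18. Across all 10914 compared genes with a 3′ UTR, 16.1% held the former and 13.6% the latter. The list was drawn from known targets, so that holding a site is no finding of these data. The windows below are from 11 of the 12 genes above the range, in order of their difference, read from NCBIM37 on the strand of the gene and written as in the RNA's DNA sense, with the 7-base site in capitals. They show up to 11 bases on each side of the first site, preferring one followed by an A. The remaining gene, *Mbd2*, also holds 1 site of the miR-290 and miR-302 seed, and its window is not shown.
*Tgfbr2*, chr9:115996879-115996907, minus: tcaaaacctaaAGCACTTattttcaatct
*Rab11fip5*, chr6:85284978-85285006, minus: ttcatgttttgAGCACTTtatgaagaata
*Lefty2*, chr1:182828037-182828065, plus: cacccagtttaAGCACTTacatgggtaaa
*Ccnd2*, chr6:127079348-127079376, minus: tccattagaaaAGCACTTtgaaaattttg
*Lefty1*, chr1:182868333-182868361, plus: actgtatgcgaAGCACTTacatgtataga
*Lats2*, chr14:58318421-58318449, minus: tccgtacccaaAGCACTTgctgctgccca
*Rhoc*, chr3:104597238-104597266, plus: tattacacaccAGCACTTtatatattttt
*Ccnd1*, chr7:152117571-152117599, minus: ttccatttcaaAGCACTTttggtcagcta
*Cdkn1a*, chr17:29237434-29237462, plus: gtgggtgtcaaAGCACTTagtgggtctga
*Rbl2*, chr8:93647718-93647743, plus: tttttcaataaAGCACTTataaatta
*Akt1*, chr12:113892196-113892224, minus: gcccttctcctAGCACTTgtccttttaga
All of these lie in the 3′ UTR. In *Tgfbr2*, *Lefty2*, *Lefty1*, *Cdkn1a* and *Rbl2* the site is followed by an A, which lies opposite base 1 of the miRNA in the 8-base form.

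Among 3′ UTRs of middle length, sites of 5 of the 6 miRNA seeds listed as abundant in ESCs went with higher *Dicer* KO levels. Those of miR-15 did not. This split was not seen in shorter or longer 3′ UTRs, where the median was higher with a miR-15 site as well. Genes with a 7-base miR-290 and miR-302 site (1758 genes) had a median difference of 0.37, and those without had 0.06. Genes with 1 such site had a median of 0.34 (1461 genes), those with at least 2 had 0.57 (297 genes), and those with the 8-base site had 0.54 (349 genes). For miR-17 sites (1488 genes) the medians were 0.44 with a site and 0.06 without, 0.60 with at least 2 sites (207 genes) and 0.61 with the 8-base site (440 genes). The sites of both groups overlap: 803 genes held both (median 0.50), 955 the miR-290 and miR-302 site alone (0.29), 685 the miR-17 site alone (0.41) and 8471 neither (0.04). The other groups listed for ESCs had medians with and without a site of 0.38 and 0.09 for miR-92 (GTGCAAT), 0.34 and 0.08 for miR-130 (TTGCACT), 0.32 and 0.07 for miR-19 (TTTGCAC) and 0.24 and 0.06 for miR-15 (TGCTGCT). The 8-base site did not go with a higher median in each of them: it had 0.39 for miR-130, 0.37 for miR-92, 0.28 for miR-19 and 0.22 for miR-15. For the 8 seeds not listed for ESCs, the median with a 7-base site lay between 0.18 (let-7) and 0.28 (miR-199) before 3′ UTR length is taken into account. All of these were searched for on the transcribed strand alone. These groups also share letters, since TTGCACT and TTTGCAC overlap by 6 bases.

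The length of the 3′ UTR moved with the result. The median difference was -0.12 in the 2789 genes with a 3′ UTR under 500 bases, 0.13 in the 5128 with 500 to 2000 bases and 0.29 in the 2997 with over 2000 bases, and long UTRs hold more sites of every kind. Among the 5128 genes of the middle band, the median was 0.34 with and 0.10 without a miR-290 and miR-302 site, 0.45 and 0.10 for miR-17, 0.44 and 0.11 for miR-92, 0.35 and 0.10 for miR-130 and 0.25 and 0.11 for miR-19. For miR-15, the sixth seed listed for ESCs, both were 0.13. For 7 of the other 8 seeds, the medians with and without a site differed by less than 0.06 in this band: let-7 (0.12 and 0.13), miR-21, miR-29, miR-199, miR-200, miR-142 and miR-223. For miR-9, which is known from neurons, they were 0.21 and 0.12. These offsets of miR-9, miR-199 and miR-223 were small and still larger than that of any WT library. The same offset, computed for each WT library against the mean of all 6, lay between -0.01 and 0.02 in the middle band for miR-290 and miR-302 and between -0.06 and 0.02 for miR-17. The *Dicer* KO offsets of 0.24 and 0.35 were outside both of these ranges. In the middle band, 14.3% of genes with a miR-290 and miR-302 site and 17.7% of those with a miR-17 site were over 1 unit above the WT range, against 10.2% and 9.90% of genes without. The order of the seeds changed with the band. Under 500 bases, medians with and without a site were 0.23 and -0.13 for miR-290 and miR-302 and 0.17 and -0.12 for miR-17. There they were also 0.05 and -0.13 for miR-15, 0.30 and -0.12 for miR-142 (33 genes with a site) and -0.05 and -0.12 for miR-130. Over 2000 bases they were 0.40 and 0.21 for miR-290 and miR-302 and 0.46 and 0.22 for miR-17. For miR-130 they were 0.35 and 0.27 there, and for miR-15 0.32 and 0.25. These are descriptions over genes of 1 library, and each median rests on genes that share their sequences with other seeds.

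**Figure D3:**
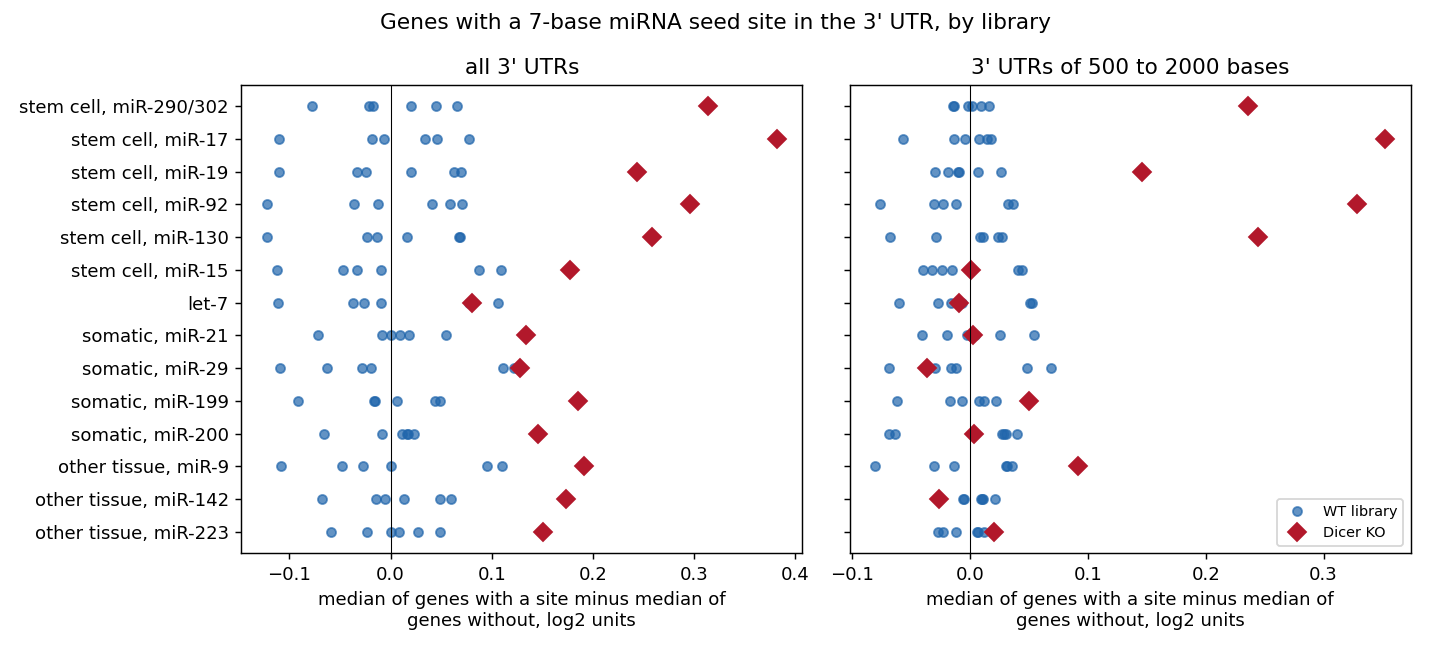
Median difference of genes with a 7-base seed site in the 3′ UTR minus that of genes without, in log2 units, for 14 seeds, over all 3′ UTRs (left) and those of 500 to 2000 bases (right). Red diamonds are the *Dicer* KO library and blue circles the 6 WT libraries, each against the mean of the 6; in the right panel the diamonds of miR-290 and miR-302, miR-17, miR-92, miR-130 and miR-19 lie furthest to the right of the circles in their row, and those of miR-9, miR-199 and miR-223 lie just past them.

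Genes of the small RNA pathway were mostly near WT. Of 18 compared, 1 was above the range and none below, against 10.1% and 3.63% of all genes, with a median difference of 0.02. The one above was *Tnrc6a*, a GW182 protein that links Argonaute to mRNA decay, with 13.3 RPKM against 2.403, 3.46 and 6.35, a call that was lost with a pseudocount of 1, with centring and with scaling to reads in exons. The helicase *Mov10* (10.4 against 1.76, 4.16 and 5.302) and *Eif2c1* (*Ago1*; 5.25 against 1.12, 1.73 and 3.92) were above all WT libraries by less than 1 unit, while *Eif2c2* (*Ago2*; 10.7 against 3.95, 7.18 and 15.7), *Drosha* (11.9 against 6.75, 9.05 and 25.95) and *Dgcr8* (6.45 against 4.26, 5.401 and 8.58) were within the range. *Xpo5*, the exporter of miRNA hairpins, had 18.2 RPKM against 25.97, 28.6 and 30.7.

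The let-7 axis, the targets of let-7 together with its regulators, was not displaced as a list. Of 30 genes, 3 were above (10.1% of all genes were) and 1 below, with a median difference of -0.10. Those above were *Hmga2*, a chromatin protein of fetal cells (8.43 RPKM against 0.414, 0.892 and 1.68), *Prtg* (9.68 against 1.11, 1.72 and 4.45) and *Tgfbr1* (11.02 against 3.27, 3.62 and 3.96). *Prtg* lost its call with a pseudocount of 1 and with centring. *Lin28a* was the one below. Other targets lay within the range, such as *Trim71* (23.1 against 10.7, 18.5 and 48.3), *Igf2bp1* (36.9 against 13.8, 31.9 and 86.4) and *Mycn* (16.6 against 16.5, 30.8 and 36.02). *Hmga1* was below all WT libraries by less than 1 unit, with 33.8 RPKM against 62.1, 74.3 and 104.

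Host genes of miRNAs were called about as often as all genes. Of 138 compared genes that contain an annotated miRNA gene on their own strand, 17 were above (12.3%) and 5 below (3.62%) the range, beside 10.1% and 3.63% of all genes, with a median difference of 0.37. *Sfmbt2*, whose introns hold a large miRNA cluster, had 0.246 RPKM against 2.42, 2.68 and 6.27 RPKM in WT. *2610318N02Rik*, which holds *Mir130b* and *Mir301b*, had 2.08 RPKM against 5.12, 6.14 and 6.85. Above the range were the *Mir22* host *2210403K04Rik* (6.73 RPKM against 0.523, 0.974 and 1.53), *Ctdspl* with *Mir26a-1* (3.05 against 0.507, 0.691 and 1.09) and *Vmp1* with *Mir21* (21.7 against 7.45, 8.24 and 10.5). The imprinted RNA *Rian*, with 3 annotated miRNA genes, had 6.15 RPKM against 0.0135, 0.0205 and 0.0887. Host RNA is not mature miRNA, which was not analysed here. The hosts were taken from the annotation, and those named here other than *Rian* were picked after their values were seen.

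Inhibitors of the cell cycle and cyclins were short lists. The counts of this paragraph stand beside 10.1% of all genes above the range and 3.63% below. Of 8 inhibitors compared, 4 were above the range (*Cdkn2b* passed the minimum only through the *Dicer* KO library), 1 below and 3 above all WT libraries by less than 1 unit, with a median difference of 1.19. *Cdkn2b* (p15) had 7.63 RPKM against 0.574, 0.6703 and 0.873, and *Cdkn2a* (p16 and p19ARF, not separated in the table) 10.7 against 0.606, 1.14 and 1.89. The neighbours *Cdkn2a* and *Cdkn2b* and the miR-290 targets *Cdkn1a* and *Rbl2* made up the 4. *Cdkn1c* (p57), an imprinted gene, was the one below, with 1.45 RPKM against 4.39, 9.71 and 16.7. Of 13 G1 cyclins, kinases and E2F factors, *Ccnd1* and *Ccnd2* were above and none below, and *Ccne1* (cyclin E1) was below all WT libraries by less than 1 unit (16.3 against 26.7, 53.3 and 59.3). Among 19 targets of p53, 3 were above and none below, with a median of 0.42: *Perp* (58.7 against 12.7, 14.4 and 24.99), *Btg2* (33.2 against 6.66, 10.2 and 12.04) and *Cdkn1a*. *Mdm2* (23.4 against 9.59, 12.1 and 25.09) and *Bax* (52.8 against 40.4, 55.02 and 68.4) were within the range. Of 14 genes of the BCL2 family, *Bad* was above (5.31 against 1.38, 2.101 and 2.56) and *Hrk* below (0.00723 against 0.234, 0.552 and 1.87). *Bad* lost its call under 4 alternatives, centring and a pseudocount of 1 among them, and *Hrk* under 5, the WT libraries of day 17 and of day 25 alone among them.

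Fibroblast and smooth muscle genes had the largest list medians when genes that passed through the *Dicer* KO library alone were counted. The counts of this paragraph stand beside 10.1% of all genes above the range and 3.63% below. Of 21 fibroblast genes compared, 19 were above the range and none below, with a median difference of 4.42, and 16 of the 21 passed the minimum only through the *Dicer* KO library, so that these could lie on 1 side alone. All 13 compared genes of smooth muscle and of the serum response factor (SRF) and YAP targets were above, with a median of 4.54 (2 of them passed only through the *Dicer* KO library). Over genes that also passed in WT, the median was 1.70 for fibroblast (5 genes) and 3.05 for smooth muscle (11 genes). The same filter gave 1.56 for the miR-290 and miR-302 targets and 1.57 for antigen presentation. With a pseudocount of 1 the fibroblast median was 2.28 and the smooth muscle median 2.90. The intermediate filament *Vim* had 226 RPKM against 5.25, 11.7 and 21.5, and *Fn1* (fibronectin) 48.5 against 8.05, 17.6 and 27.4, above all WT libraries by less than 1 unit. Collagen chains were lower in level: *Col5a2* had 14.4 RPKM against 0.0128, 0.0888 and 0.138, *Col1a2* 7.29 against 0.00214, 0.00745 and 0.0139, *Col1a1* 5.21 against 0, 0.00907 and 0.112 and *Col3a1* 3.75 against 0, 0.00419 and 0.0238. *Lox*, which crosslinks collagen, had 13.9966 RPKM against 0, 0.0287 and 0.141. Defining fibroblast genes were thus not all at the same height, and *Dcn* (0.3805 RPKM), *Lum* (0.0748), *Fap* (0.103) and *Col6a2* (0.825) stayed under 1 RPKM in the *Dicer* KO library.

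Of the contractile genes, *Tagln* (transgelin) had 121 RPKM against 1.54, 5.75 and 9.09, *Myl9* (myosin light chain) 46.2 against 1.16, 1.77 and 3.44 and *Tpm1* (tropomyosin) 77.6 against 8.33, 14.2 and 15.6. Known targets of SRF or YAP were *Thbs1* (thrombospondin 1; 145 against 0.127, 0.482 and 2.91), *Ctgf* (61.1 against 6.05, 6.91 and 13.5) and *Cyr61* (43.9 against 2.92, 4.22 and 12.3). *Myh11*, a marker of mature smooth muscle, stayed at 0.661 RPKM. Basement membrane genes were above in 6 of 11, none below, against 10.1% and 3.63% of all genes, with a median of 1.76. Of the 11, 1 passed the minimum only through the *Dicer* KO library. *Lama5* lost its call with a pseudocount of 1, with centring and with scaling to reads in exons. *Col4a1* and *Col4a2* lost theirs against all 17 WT libraries. *Sparc* had 125 RPKM against 15.4, 16.6 and 37.1, *Col4a1* 20.0017 against 3.23, 7.25 and 8.32 and *Col4a2* 17.7 against 1.43, 2.89 and 3.88, whereas *Lama1* (3.81 against 1.87, 7.12 and 10.4) was within the range.

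Markers of fibroblasts bear on these groups, since ESC cultures can hold feeder fibroblasts. The RPKM of the 26 fibroblast genes summed to 702 in the *Dicer* KO library, to between 24.9 and 53.96 in the 6 WT libraries and to between 54.4 and 77.6 in the 10 libraries labelled WT of days 0 to 9 whose exon share is between 20.2% and 21.5%. The lower share lowers every RPKM there. In these earlier WT libraries *Col1a2* was between 1.54 and 3.03, *Col3a1* between 0.894 and 1.404 and *Mgp* between 5.96 and 16.8 RPKM, so that the *Dicer* KO values of 7.29, 3.75 and 18.9 RPKM were within 5 times of that level. *Tnc* was between 2.34 and 6.57, *S100a4* between 4.38 and 12.6, *Acta2* between 3.04 and 6.81 and *Twist2* between 0.0474 and 0.181 RPKM there, far under the *Dicer* KO values of 88.4, 245, 118 and 2.77 RPKM. The *Dicer* KO library was over 1 unit above all 17 WT libraries in 1134 of the 1211 genes. The lower RPKM of the 10 earlier libraries makes a call above easy to keep against them. The part of fibroblast RNA in these results was not tested, and in bulk RNA more cells of a type and more RNA per cell cannot be told apart.

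**Figure D4:**
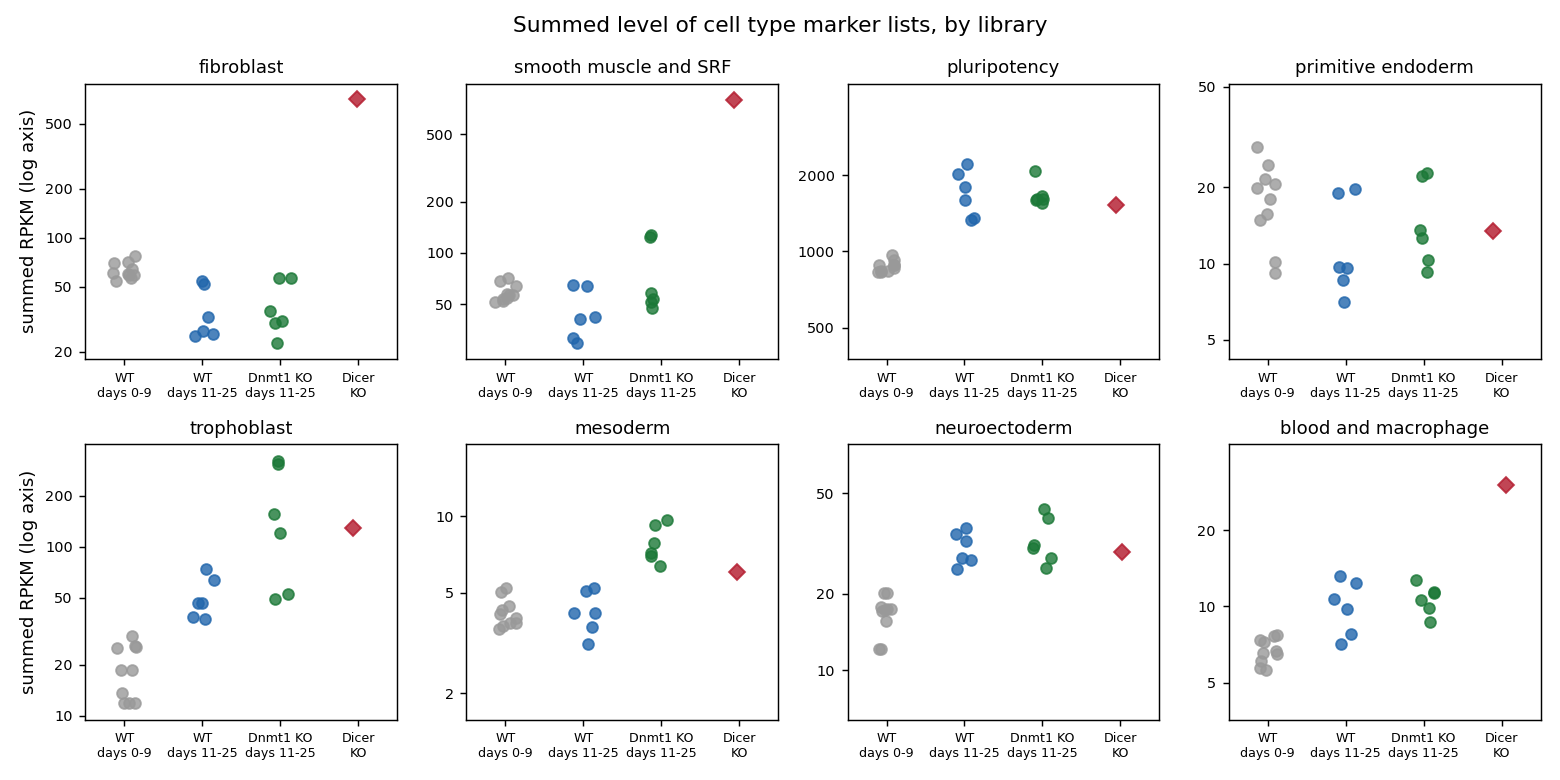
Summed RPKM (log axis) of 8 lists of cell type markers in single libraries: the 10 WT libraries of days 0 to 9 with the low exon share, the 6 WT and the 6 *Dnmt1* KO libraries of days 11 to 25, and *Dicer* KO. The *Dicer* KO library lies above all others for the fibroblast, the smooth muscle and SRF and the blood and macrophage lists, and among them for the other 5.

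Genes of the interferon response and of antigen presentation were above the range in part, beside 10.1% of all genes above and 3.63% below. Of 18 interferon genes compared, 9 were above and none below, with a median of 1.27, although 7 of the 18, all of them among the 9, passed only through the *Dicer* KO library and could lie on 1 side alone. The median was 0.52 over the 11 others and 0.61 over the 18 with a pseudocount of 1. *Zbp1*, a sensor of Z-form nucleic acid, had 2.82 RPKM against 0, 0.0158 and 0.0472, *Oasl1* 2.56 against 0.0283, 0.0922 and 0.169, and *Isg15* 1.54 against 0, 0 and 0.0881. *Eif2ak2* (PKR, activated by double-stranded RNA) had 6.29 RPKM against 1.21, 1.65 and 2.03 and *Irf1* 9.65 against 2.12, 2.89 and 4.25, both of which were also above 1 RPKM in WT. *Irf1* lost its call with centring. *Ifnb1* (interferon β) had no read in any of the 7 libraries, and *Mavs* (2.59 against 1.48, 2.103 and 2.71) was within the range. *Bst2* (tetherin) was below all WT libraries, by less than 1 unit, with 6.19 RPKM against 11.8, 20.9 and 55.5. In antigen presentation, 5 of 9 were above and none below, with a median of 1.86. *Tapbp* (tapasin) had 25.5 RPKM against 1.43, 1.901 and 2.23, *Erap1* (a trimming peptidase) 11.8 against 0.408, 0.883 and 1.16, *Psmb8* (an immunoproteasome subunit) 4.85 against 0.104, 0.171 and 0.3099 and *H2-D1* 10.9 against 1.24, 1.95 and 2.101. *H2-K1* was within the range (6.84 against 3.45, 6.09 and 6.86). H2 genes also have near-identical copies, and the effect of this on their values was not tested.

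The pluripotency genes *Pou5f1*, *Sox2*, *Nanog*, *Esrrb* and *Zfp42* stayed within 1 unit of the WT range. *Pou5f1* (OCT4) had 128 RPKM against 161, 183 and 260.4, *Sox2* 59.6 against 44.1, 52.1 and 84.6, *Nanog* 107 against 30.7, 68.7 and 161, *Esrrb* 22.3 against 11.7, 14.5 and 28.4 and *Zfp42* (REX1) 18.5 against 14.8, 17.13 and 24.7. Of these, *Pou5f1* alone was outside the WT range, by less than 1 unit. Of 25 pluripotency genes, 1 was above the range and 2 below, against 10.1% and 3.63% of all genes, with a median difference of -0.41. *Klf2*, a factor of naive pluripotency, was above (10.6 against 2.45, 3.99 and 4.99; not with centring, with a pseudocount of 1 or against all 17 WT libraries), and *Utf1* (7.14 against 25.3, 32.2 and 39.8) and *Dppa3* were below. By any amount, 10 of the 25 were below all WT libraries and 3 above, beside 26.0% and 35.1% of all genes. *Nr5a2* and *Tcl1*, neither of them called, had differences of -1.48 and -1.27. The summed level of the list was 1530 RPKM in the *Dicer* KO library and between 1336 and 2216 in WT.

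The lists of other embryonic cell types were short, and their counts stand beside 10.1% of all genes above and 3.63% below. Summed over its list, trophoblast stood at 129.7 RPKM in the *Dicer* KO library against 37.2 to 73.8 in WT, mostly through *Krt8*, mesoderm at 6.03 against 3.12 to 5.22, and primitive endoderm (13.5) and neuroectoderm (29.3) within the WT range. Of the genes called above in these lists and in the blood list, *Plat*, *Krt7*, *Evx1*, *Ncam1*, *Lyz2* and *Tyrobp* passed the minimum only through the *Dicer* KO library and could lie on 1 side alone. Of 8 compared genes of primitive endoderm, *Fst* (7.17 RPKM against 0.446, 1.008 and 1.23) and *Plat* (2.41 against 0.382, 0.553 and 0.705) were above, and *Gata6* (0.134 against 0.391, 1.13 and 1.43) and *Cubn* (0.253 against 1.19, 1.56 and 3.58) below. *Afp* and *Ttr* had no read in the *Dicer* KO library. Of 5 trophoblast genes, the keratins *Krt8* (90.9 against 14.4, 26.6 and 32.6) and *Krt7* (1.02 against 0.151, 0.334 and 0.424) were above, while *Cdx2* (0.789 RPKM) stayed under 1 RPKM and *Elf5* had no read. Of 3 mesoderm genes *Evx1* was above (1.58 against 0, 0 and 0.1505), and of 6 neuroectoderm genes *Ncam1* was above (3.33 against 0.0734, 0.186 and 0.2804) and *Otx2*, a factor of the formative epiblast, below (0.617 against 2.897, 3.55 and 4.17). Of 6 blood and macrophage genes, *Lyz2* and *Tyrobp* (1.17 RPKM, no read in WT) were above, whereas *Ptprc* (CD45), at 0.0467 RPKM, and *Csf1r* (1.12 against 0.859, 1.397 and 1.53) were within the WT range.

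The DNA methylation machinery was lower in its de novo part. Of 13 genes, *Mbd2* was above the range and *Dnmt3l* and *Dnmt3a* below, with a median difference of -0.71, and 8 of 13 were below all WT libraries by any amount. Of all genes, 10.1% were above, 3.63% below and 26.0% below by any amount. *Dnmt3a* had 1.205 RPKM against 2.604, 4.73 and 8.25 RPKM in WT and *Dnmt3b* 9.56 against 12.4, 38.9 and 47.4, the latter below all WT libraries by less than 1 unit. *Dnmt3a* lost its call with a pseudocount of 1 and against all 17 WT libraries, 10 of which have a lower exon share and so lower RPKM. *Uhrf1*, the partner of DNMT1 (16.6 RPKM against 25.9, 29.1 and 38.7), and *Tet2*, which oxidises methylcytosine (6.96 against 12.3, 14.97 and 23.01), were likewise below by less than 1 unit. None of 23 genes of repressive chromatin was over 1 unit outside the range (median -0.18), *Ezh2* having 6.25 RPKM against 7.47, 8.85 and 12.7 and *Setdb1* 13.1 against 9.94, 12.1 and 15.8.

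Germline genes known to be held by promoter methylation were low in part in the *Dicer* KO library. Of 14 compared, none was over 1 unit above the range, 4 were below and 4 more were below all WT libraries by less than 1 unit, with a median of -0.81. The counts of this paragraph stand beside 10.1% of all genes above and 3.63% below. *Sycp3* (meiotic chromosome axis) had 0.614 RPKM against 2.62, 4.395 and 8.66, *Rpl10l* 0.836 against 3.502, 4.49 and 5.42, *Piwil2* (the piRNA protein MILI) 0.537 against 1.68, 1.85 and 3.02 and *Hormad1* 1.099 against 2.37, 2.79 and 3.34. All 4 lost the call against all 17 WT libraries, and *Piwil2* and *Hormad1* also with a pseudocount of 1. The lower exon share of 10 of the 17 lowers every RPKM in them, so that the former loss is no check of these calls. *Ddx4* (7.43 against 2.71, 3.15 and 5.19), *Tex19.1* (24.3 against 10.6, 11.6 and 14.8) and *Stag3* (6.93 against 1.58, 1.68 and 4.83) were above all WT libraries by less than 1 unit. None of the 10 listed genes of the 2-cell embryo that were in the table passed the minimum. Of 22 imprinted genes, 2 were above, both of which passed the minimum only through the *Dicer* KO library, and 4 below. *Plagl1* had 7.51 RPKM against 0.171, 0.333 and 0.936, and *Rian*, as given before, stood above with its neighbour *Meg3* at 0.877 RPKM, against at most 0.00611 in WT, under the minimum. Those below were *Phlda2* and *Cdkn1c*, which lie in 1 imprinted domain of chromosome 7, *Grb10* (4.86 against 22.1, 23.8 and 32.7) and *Snrpn* (8.14 against 21.5, 30.2 and 50.8). *H19* (3.96 against 2.95, 9.13 and 13.7), *Igf2* (1.02 against 0.694, 1.61 and 2.16) and *Peg3* (12.1 against 11.8, 22.2 and 31.5) were within the range.

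**Figure D5:**
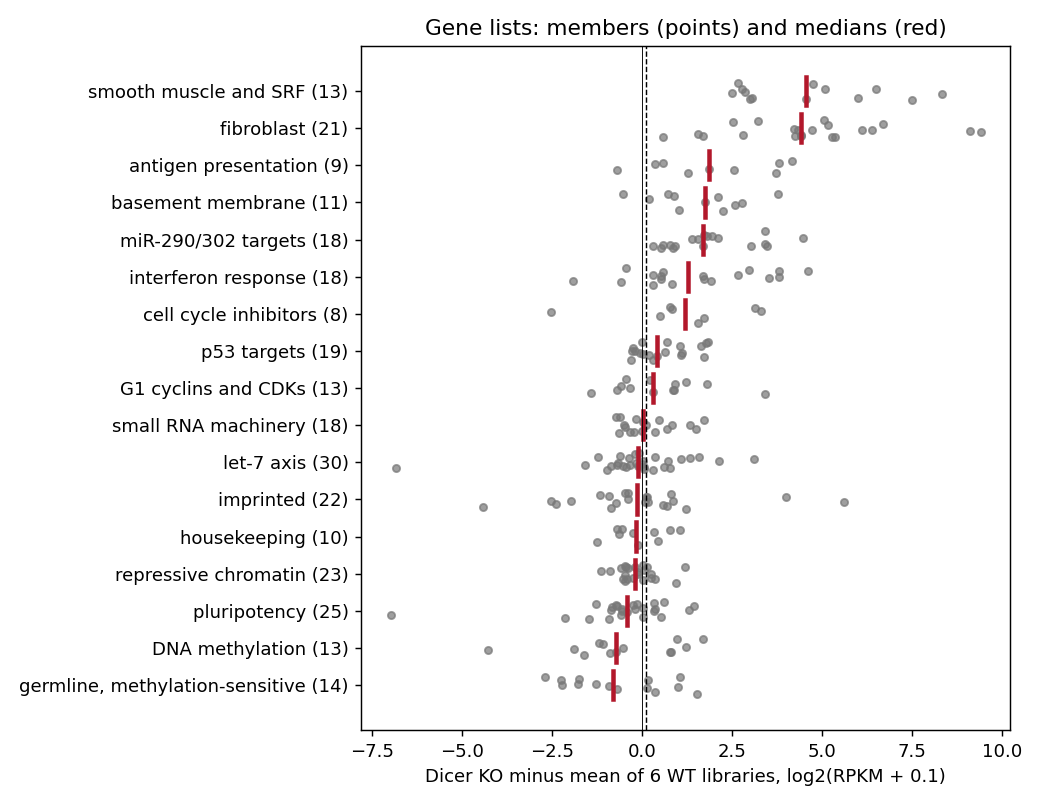
Difference of each compared gene, *Dicer* KO minus the mean of the 6 WT libraries on log2(RPKM + 0.1), for 17 gene lists (number of genes compared in parentheses); red bars are list medians and the dashed line is the median of all genes, 0.10. The smooth muscle and SRF and the fibroblast lists lie furthest to the right, and the germline and DNA methylation lists have the lowest medians.

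The 10 housekeeping genes gave a reference for scale. None was over 1 unit outside the range, and their median difference was -0.18.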

How the data were processed

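Stranded libraries were made from total RNA after removal of ribosomal RNA. Per the study's methods and the submitters' processing notes, reads were trimmed (Trim Galore 0.3.5), mapped to NCBIM37 with TopHat2 2.0.11, and kept at a mapping quality of at least 20. The deposited table holds linear RPKM that the authors computed per gene; the methods name log2 RPM instead, and the scale was taken from the values.

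Reads were recovered as RPKM times exon length (GENCODE vM1, 26089 of 26127 rows) divided by the step that 1 read makes in each library; between 99.5% and 99.8% of values under 20 reads came out within 0.1 of a whole number. Exon shares are sums over these rows. Values were put on log2(RPKM + 0.1), and the call was a *Dicer* KO value over 1 unit outside the range of 6 WT libraries. The code of the call was run on simulated counts of genes with a WT mean above 1 RPKM. These had a common mean per gene, apart from genes changed on purpose, and no differences between days, clones or cultures. They therefore do not show how often such differences alone give a call. No p-value was computed. GEO's labels do not say whether the 2 WT libraries of a day come from separate cultures. Each miRNA seed was searched for in the longest 3′ UTR per gene, and 25 of 31 listed miRNAs matched RefSeq. Named genes are *Dicer1*, *Dnmt1*, members of 25 gene lists, the 12 furthest outside and the 12 most abundant of each side, and those nearest the threshold, with at least 20 reads in the highest of the 7 libraries, 200 bases of exon and a unique symbol. The members and lists were chosen with earlier results of these data known; 8 further families were added after values were seen. Alternatives were other pseudocounts, scalings, filters, thresholds and control sets. Python 3.11.15 with numpy 2.4.6, pandas 2.3.3 and matplotlib 3.10.9 was used. The values of 1 listed gene are not reported here.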

Additional observations from a re-analysis of the deposited data

How the results depend on the processing

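The count of genes above the WT range was 2120 against the WT libraries of day 11 alone, 2402 against day 17 alone, 656 when a WT library had to exceed the minimum (chosen after seeing the data) and 451 with a threshold of 2 log2 units, against 1211. It was 820 with a pseudocount of 1, 1134 against all 17 WT libraries and 814 with the minimum required in 2 of the other 34 libraries. The count below, 437, was 146 with a pseudocount of 1, 669 with median-centred libraries, 1142, 1032 and 916 against day 11, 17 and 25 alone, 138 against all 17 WT libraries, 165 without the 2 of day 6, and 89 with 2 log2 units. Of the 17 WT libraries, 10 have a low exon share and so lower RPKM, which makes calls above easier to keep than calls below. The day 6 libraries labelled WT had 3.22 and 3.40 RPKM of *Dnmt1* against 20.2 and 20.4 in those labelled *Dnmt1* KO, which goes against their labels. Leaving out 1 WT library gave 1223 to 1276 above and 443 to 479 below. Fewer WT libraries can only narrow the WT range, so that a call is lost there only where the gene no longer passes the minimum. The median of the miR-290 and miR-302 target list was 1.51 with a pseudocount of 1, 1.45 with centred libraries, 1.93 and 1.37 against days 17 and 25, and 2.04 against all 17. The fibroblast median was 2.28 and 7.39 with pseudocounts of 1 and 0.01, 4.17 centred, 4.99 and 4.88 against days 11 and 17, 3.19 against all 17 and 1.70 over the 5 genes above the minimum in WT. The smooth muscle and SRF median was 2.90 with a pseudocount of 1, 3.80 and 3.81 against days 11 and 25, and 3.05 over the 11 genes above the minimum in WT. The offset of miR-290 and miR-302 sites was 0.45 for 8-base sites and 0.24 in the middle UTR band, and that of miR-17 sites 0.52 for 8-base sites and 0.47 against day 17. The cause of these shifts was not tested, beyond the fewer libraries, fewer genes or larger pseudocount that each setting holds. Of the 166 called genes with a listed or named symbol, 137 kept their call with a pseudocount of 1, 148 with centring, 159 with the third day 1 library added and 123 against all 17 WT libraries. Every one kept it without any single WT library, which is no check of the calls, since the narrower range could not remove them. No paired analysis was possible because the *Dicer* KO group has 1 library, whose number matches no WT library, and no test was run. Where the *Dicer* KO library holds 3 reads or fewer, as in 59 of the 437 genes below, the depth of 25.9 mega-reads limits the size that can be given.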

Other observations

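On the X chromosome 49 of 406 compared genes (12.1%) lay over 1 unit below the WT range, against between 2.11% and 4.77% on the 19 autosomes, while 8.13% lay above and the chromosome's median difference was 0.03. Among them were *Kis2* and *Pdzd4*, named above, and *Rpl10*. The highest autosomal medians were 0.26 on chromosome 3 and 0.25 on chromosome 1, and the lowest was -0.16 on chromosome 13; the WT libraries themselves spanned -0.19 to 0.10 on chromosome 13. Of the Y-linked genes, *Ddx3y* had 2.03 RPKM in the *Dicer* KO library against 0.0289, 0.0381 and 0.151 RPKM (lowest, median and highest of the 6 WT libraries) and *Eif2s3y* 1.61 against 0.104, 0.174 and 0.287. Both passed the minimum only through the *Dicer* KO library, so that they could lie above alone. The summed RPKM of the 8 Y-linked genes was 4.28 in *Dicer* KO, between 0.215 and 0.477 in these WT libraries, between 1.31 and 5.77 in the 10 earlier libraries labelled WT and between 21.3 and 37.4 in the 6 *Dnmt1* KO libraries of days 11 to 25.

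Gene families picked after their values were seen are given as values. Their counts stand beside 10.1% of all genes above the range and 3.63% below, with 26.0% below all WT libraries by any amount. The 13 protein genes of the mitochondrial genome had a median difference of -0.997, with 10 of 13 below all WT libraries, though the WT libraries themselves summed to between 5457 and 13998 RPKM and the *Dicer* KO library to 4609. Cytosolic ribosomal protein genes had a median of -0.64 (2 of 73 below by over 1 unit) and histone genes of -0.88 (1 above and 2 below of 63). Of 9 integrin chains compared, 6 were above the range (2 passed only through the *Dicer* KO library), *Itgb3* (2.24 RPKM against 0.0516, 0.1001 and 0.199956), *Itgav* (16.5 against 1.63, 2.52 and 4.11) and *Itga5* (11.6 against 0.956, 1.82 and 4.49) among them, and *Itgb7* was below (0.551 against 1.73, 2.26 and 2.56). Of 7 compared Hox genes, 6 were above, and these 6 passed the minimum only through the *Dicer* KO library and could lie on 1 side alone, such as *Hoxa10* with 2.16 RPKM against 0, 0.04203 and 0.113. Of 18 glycolytic genes, *Hk1*, which passed only through the *Dicer* KO library, was above (2.92 against 0.281, 0.568 and 0.837) and *Ldha* and *Eno1* were below. Of 6 S100 genes, *S100a4*, *S100a6*, *S100a13* and *S100a10* were above, and *S100a4* passed the minimum only through the *Dicer* KO library. *S100a10* lost its call with centring, with the third day 1 library added and against all 17 WT libraries. Of the 24 clustered protocadherins in the table, 1 passed the minimum and it lay above all WT libraries by less than 1 unit.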
